A study of Mus musculus with 3 samples.

Results

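The sequences described here match the Srf mRNA and were read in small RNA libraries of HL-1 cells. Most are taken as small RNAs of the transfected siRNA duplexes against Srf, and the others are counted apart below. A read belonged to the set if its insert of 16 to 25 nt matched the mouse Srf mRNA on either strand exactly, with 1 mismatch, or with 1 to 2 untemplated bases at its 3′ end. It had to have no exact match elsewhere in the genome. Of 2315804 distinct inserts of that length over both libraries, 328 met these conditions. They made up 48 distinct inserts with 100 reads in the library labelled siSrf1 and 294 distinct inserts with 2155 reads in the library labelled siSrf2. A further 96 distinct inserts, with 78 reads under the siSrf1 label and 98 under the siSrf2 label, were left out because they matched the genome exactly in another place.

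HL-1 is a mouse cardiac muscle cell line that contracts in culture. Cells were transfected with 9 µl of a 20 µM siRNA stock and a lipid reagent (Lipofectamine), and RNA was taken 48 h later, per the labels. There was 1 library per title, so no difference between libraries has a replicate check and no p-value is given. Intervals are exact 95% Poisson intervals for counts and exact Clopper-Pearson intervals for shares; they cover counting error only, as reads copied by PCR and lacking molecular identifiers need not come from separate molecules.

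The labels of these samples contradict each other. Under the title siSrf1 the siRNA entry reads Srf si2. Under the title siSrf2 it reads siNon, the name of the unspecific siRNA in the titles. Under the title siNon it reads Srf si1, and that library was not analysed here. Libraries are therefore named below as the library labelled siSrf1 and the library labelled siSrf2, after their titles. The library labelled siSrf1 had 14911499 reads, of which 8573245 gave an insert of 16 to 25 nt, and the library labelled siSrf2 had 14518157, of which 7906805 did. The cardiac miRNA miR-499-5p had 79408 reads in the library labelled siSrf1 and 67641 in the library labelled siSrf2, and miR-208a-3p had 71 under the siSrf1 label and 80 under the siSrf2 label. Among markers of other cell types, miR-126a-3p of endothelium had 1707 reads under the siSrf1 label and 1325 under the siSrf2 label, and miR-206-3p of skeletal muscle had 657 under the siSrf1 label and 681 under the siSrf2 label. Markers of blood and epithelium (miR-142a-3p, miR-451a, miR-200a-3p, miR-200b-3p and miR-141-3p) lay between 0 and 113 reads in the library labelled siSrf1 and between 0 and 94 in the library labelled siSrf2.

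Serum response factor is a transcription factor that binds promoters of cytoskeletal and contractile genes, and it is needed for the heart muscle programme. An siRNA is a short RNA duplex with 3′ overhangs, of which an Argonaute protein keeps a single strand as guide and discards the passenger. Here the antisense strand is the one that can pair with the Srf mRNA, so it is the intended guide; in general the strand whose 5′ end pairs more weakly is retained more often. The seed of a guide, bases 2 to 8, also pairs with sites in other mRNAs, as the seed of a miRNA does.

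Most members fell on 2 windows of the Srf 3′ UTR, both in exon 7 of 7, on the minus strand of chromosome 17 (NCBIM37). The others, with 21 reads in the library labelled siSrf1 and 20 in the library labelled siSrf2, matched Srf elsewhere with 1 mismatch or a tail. The upstream site spans chr17:46685980-46686003, which is position 1878 to 1901 of the 4093-nt mRNA. The downstream site spans chr17:46685750-46685770, position 2111 to 2131. The 3′ UTR begins at position 1850. The mRNA at each site is shown 5′ to 3′ because it is what the duplex was directed at, and capitals mark the 19 bases that the strands of the implied duplex share.
Upstream site, chr17:46685977-46686005, minus strand: ccaagGGACGGCACCACTTATTTAttgtt
Downstream site, chr17:46685745-46685773, minus strand: tggctCAATTTGCTATGAGTATTAgctga

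The strands as they were read are shown next, since the results turn on their ends. Capitals mark bases that the Srf sequence does not encode at that place.
Upstream sense, most frequent: acggcaccacttatttatt
Upstream sense, 1 base longer at the 5′ end: gacggcaccacttatttatt
Upstream sense, 1 base shorter at the 5′ end: cggcaccacttatttatt
Upstream antisense, most frequent: aagtggtgccgtccct
Upstream antisense, full-length 5′ end with untemplated base: taaataagtggtgccgtcccC
Upstream antisense, full-length 5′ end without it: taaataagtggtgccgtccc
Downstream antisense, most frequent: aatactcatagcaaattgag
Downstream antisense, next most frequent: actcatagcaaattgag

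Each Srf duplex belonged almost wholly to a single library. The upstream site had 27 reads in the library labelled siSrf1 (17.8 to 39.3) and 2135 in the library labelled siSrf2 (2045 to 2228). Per 1000000 inserts these were 3.15 reads under the siSrf1 label and 270.0 under the siSrf2 label, a log2 ratio of siSrf1 over siSrf2 of -6.40 (-7.03 to -5.88), so the site was read 84.2-fold more in the library labelled siSrf2 (58.8 to 130.4). The downstream site had 52 reads in the library labelled siSrf1 (38.8 to 68.2) and 0 in the library labelled siSrf2 (a count of 0 allows up to 3 reads). Against that floor the 52 reads were 16.0-fold higher per 1000000 inserts. The exact interval of the ratio, which also covers the counting error of the 52 reads, begins lower, at a log2 of 3.65. The library labelled siSrf1 thus held reads of both sites, more of them from the downstream one, and the source of its 27 upstream reads was not tested. The library labelled siSrf2 thus held Srf duplex reads although its siRNA entry is siNon; which siRNA each library received, and which duplex is si1 or si2, was not tested.

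A search for siRNA-like pairs that match no place in the genome was made because an unspecific siRNA need not match it. Pairs of inserts of 19 to 23 nt with 2-nt 3′ overhangs, each strand read at least 5 times, numbered 13 in the library labelled siSrf1 and 11 in the library labelled siSrf2, and 9 of them were in both. At this minimum 0 pairs of the library labelled siSrf1 and 1 pair of the library labelled siSrf2 were absent from the other library; that pair, with 6 reads of each insert, was not of Srf. At a minimum of 2 reads, 23 pairs of the library labelled siSrf2 were absent from the library labelled siSrf1, 16 of them of Srf, and at a minimum of 10 reads 0 were. Inserts that hold 13 nt of this pair had 0 reads in the library labelled siSrf1 and 238 in the library labelled siSrf2 (208.7 to 270.2). They were of unequal strands, with 216 reads of the more frequent strand and 22 of the other, and their paired part was in 0 protein-coding transcripts of GENCODE vM1. This pair was looked at after its counts were seen, its sequence is not printed, and which siRNA it is was not tested.

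Away from both sites the Srf mRNA gave no exact read: 0 in the library labelled siSrf1 and 0 in the library labelled siSrf2, each of which allows up to 3. Inserts that matched elsewhere in Srf did so with 1 mismatch or a tail, with 21 reads in the library labelled siSrf1 (13 to 32.1) and 20 in the library labelled siSrf2 (12.2 to 30.9). These counts are alike in both libraries, unlike those at the sites. Argonaute cuts a target opposite bases 10 and 11 of its guide, which for the cores above places the first base after the cut at mRNA position 1890 upstream and 2122 downstream. No exact sense read began there or ended just before it in either library, and 0 exact sense reads ran beyond the overhangs. Inserts of this length cannot show whether the mRNA was cut, since longer fragments were left out. Cuts opposite guides with a shorter 5′ end were not looked at. The amount of Srf mRNA is not measured by this assay.

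The strands of the upstream duplex were not read equally, and the sense strand, the intended passenger, was read more. In the library labelled siSrf1 it had 25 sense and 2 antisense reads, an antisense share of 7.41% (0.910 to 24.3). In the library labelled siSrf2 it had 1296 sense reads (1226 to 1369) and 839 antisense reads (783.2 to 897.7), an antisense share of 39.3% (37.2 to 41.4). The intervals of these shares do not overlap, though the lower one rests on 27 reads. Counting only exact matches, the antisense share in the library labelled siSrf2 was 26.9% (24.7 to 29.2), since tails were more frequent on antisense than on sense reads. With inserts of 15 to 28 nt kept it was 47.9%. The downstream duplex showed the opposite order: 45 of its 52 reads in the library labelled siSrf1 were antisense, a share of 86.5% (74.2 to 94.4), and 7 were sense.

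The cores were taken as the stretch between the outermost 5′ ends of each strand, with at least 5 reads upstream and at least 1 read downstream, reads with a mismatch left out. They span mRNA position 1881 to 1899 upstream and 2113 to 2131 downstream, each 19 base pairs. Over both libraries, 24 sense and 351 antisense reads began at the upstream ends, and 4 sense and 3 antisense reads at the downstream ends. The values for GC content, end pairing, overhangs and cut positions rest on these ends. The upstream core has a GC content of 47.4% and the downstream core one of 26.3%. Of the first 4 bases of the upstream core strands, 1 of the sense and 4 of the antisense strand are A or T. Of those of the downstream strands, 3 of the sense and 4 of the antisense strand are. By this count the antisense strand begins in the weaker pairs at both sites, whereas it was the less read strand upstream and the more read strand downstream.

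Sense reads of the upstream site shared their 3′ end and varied at their 5′ end. Among 1095 exact sense reads in the library labelled siSrf2, 94.9% ended at position 1901 (93.4 to 96.1), 2 bases past the core. Their 5′ ends lay at position 1883 in 67.1% (64.3 to 69.9), at 1882 in 17.5% and at 1884 in 12.2%, and at the core's own first base, 1881, in 1.28% (0.701 to 2.14). The strand thus appeared mostly without its first 2 bases. The insert that begins at 1883 had 6 reads in the library labelled siSrf1 and 716 in the library labelled siSrf2, 33.5% of the site's reads in the library labelled siSrf2. The insert 1 base longer had 10 reads under the siSrf1 label and 179 under the siSrf2 label, and the insert 1 base shorter had 0 under the siSrf1 label and 123 under the siSrf2 label. Lengths followed: in the library labelled siSrf1, 64.0% of 25 sense reads were 20 nt (42.5 to 82.0) and 28% were 19 nt (12.1 to 49.4), and in the library labelled siSrf2 17.9% of 1296 were 20 nt (15.9 to 20.1) and 64.4% were 19 nt (61.8 to 67.0). The most frequent length therefore differed by 1 nt between libraries, on few reads in the library labelled siSrf1.

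Antisense reads of the same duplex varied at both ends. Of 403 exact antisense reads in the library labelled siSrf2, 36.5% began at position 1894 (31.8 to 41.4), 29.8% at 1899, the core's own first base (25.4 to 34.5), 14.4% at 1897 and 10.2% at 1896. Their 3′ ends lay at 1879 in 51.1% (46.1 to 56.1) and at 1880 in 24.8% (20.7 to 29.3). The main 5′ end depends on leaving out tailed reads. With these counted, 349 of 699 antisense reads began at 1899, and 347 had a shorter 5′ end over all other positions. The most frequent antisense insert lacks the first 5 bases of the core strand and is 16 nt long; it had 0 reads in the library labelled siSrf1 and 147 in the library labelled siSrf2. Inserts of 16 nt made up 31.1% of the 839 antisense reads and those of 21 nt 19.4%, and the lengths between them, 17 to 20 nt, held 7.15% to 15.4% each. Of the 26 upstream inserts with at least 10 reads in a library, 17 are not given singly in the text; these had between 0 and 2 reads in the library labelled siSrf1 and between 10 and 36 in the library labelled siSrf2. The same short form without its last base, 15 nt long and thus below the length limit, had 1 read in the library labelled siSrf1 and 292 in the library labelled siSrf2:
Upstream antisense, 15 nt: aagtggtgccgtccc

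The last base of antisense reads differed with their 5′ end. Full-length reads, those that begin at position 1899, numbered 349 in the library labelled siSrf2; after the last base that most of them shared (position 1880), 49.3% went on with an untemplated C (43.9 to 54.7) and 1.43% with the T that Srf encodes (0.467 to 3.31). Reads with a shorter 5′ end numbered 347, and of these 8.36% went on with the untemplated C (5.67 to 11.8) and 58.5% with the encoded T (53.1 to 63.7). The order of the bases was thus reversed between both classes as pooled, with intervals far apart. The shorter class was not uniform: a single insert, which begins at 1894, gave 147 of its 203 reads with the T. For inserts that begin at 1898, the form ending in the untemplated C had 11 reads in the library labelled siSrf2. The form from 1898 ending in the encoded T had 8, and the like form from 1897 had 36. The sizes depend on the 16-nt limit: with 15-nt inserts kept, a setting added after seeing the data, reads with a shorter 5′ end numbered 655, of which 4.58% went on with the C (3.11 to 6.47), 31.0% with the T (27.5 to 34.7) and 50.8% ended at position 1880. The full-length form ending in the untemplated C had 1 read in the library labelled siSrf1 and 146 in the library labelled siSrf2, while the form without it had 0 under the siSrf1 label and 58 under the siSrf2 label. In all, 35.3% of antisense reads carried a tail of 1 to 2 bases (32.0 to 38.6) and 21.0% carried a single C (18.3 to 23.9), against a tail on 2.08% of sense reads (1.38 to 3.02). An overhang of 2 bases past the core, templated or not, ended 94.0% of sense reads (92.5 to 95.3) and 58.5% of antisense reads (54.8 to 62.2). Whether the C was part of the synthetic strand or was added later was not tested.

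Reads with 1 mismatch were 13.4% of upstream sense reads (11.6 to 15.4) and 16.7% of antisense reads (14.2 to 19.4) in the library labelled siSrf2. The most frequent change was at antisense mRNA position 1883, where 3.63% of 826 covering reads had C (2.46 to 5.14). In the insert that carries it most often, with 0 reads in the library labelled siSrf1 and 11 in the library labelled siSrf2, it is T17C, counted from 1 at the insert's 5′ end. The matching allowed no gaps, and loss of that T would give the same insert. The leading sense insert had A9C in 1 under the siSrf1 label and 16 under the siSrf2 label, and A13C in 0 under the siSrf1 label and 14 under the siSrf2 label. Sequencing errors and changes of the RNA cannot be told apart in these counts.

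The downstream duplex was shallow, but its antisense strand was ragged at the same end. Of 26 exact antisense reads in the library labelled siSrf1, 80.8% ended at position 2111 (60.7 to 93.5), 2 bases past the core, while 38.5% began at 2127 (20.2 to 59.4), 38.5% at 2130 and 7.69% at 2131, the core's first base. The leading insert, which begins at 2130, had 9 reads in the library labelled siSrf1 and 0 in the library labelled siSrf2, and the one that begins at 2127 had 7 under the siSrf1 label and 0 under the siSrf2 label. The other 3 of the 5 most frequent downstream inserts, all antisense, had 3 or 4 reads in the library labelled siSrf1 and 0 in the library labelled siSrf2. Both duplexes thus gave antisense reads that begin at several positions, though the downstream ones mostly kept a single 3′ end. Downstream, the core's first base is the outermost 5′ end read without a mismatch, so every other such end lies inside the core by definition. Of the 7 sense reads, 3 carried a tail and 2 of these ended in cc; of the 45 antisense reads, 11.1% carried a tail (3.71 to 24.1) and 31.1% a mismatch (18.2 to 46.7).

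Mature miRNAs of the same libraries show how these ends compare with those of Dicer products. In the library labelled siSrf2, 100 miRNAs had at least 200 exact reads; a median of 98.9% of their reads shared the main 5′ end and a median of 74.3% the main 3′ end. The 5′ end was the more uniform one in 85 of 88 such miRNAs of the library labelled siSrf1 and in 94 of 100 of the library labelled siSrf2. The upstream sense strand had the reverse pattern: its main 5′ end share of 67.1% was lower than that of 91 miRNAs, and its main 3′ end share of 94.9% was higher than that of 99. The antisense main 5′ end share of 36.5% was lower than that of all 100 with inserts of 16 to 25 nt, and its main 3′ end share of 51.1% was lower than that of 80. With inserts of 18 to 25 nt the antisense main 5′ end share was 56.5% and with 15 to 28 nt 62.7%. Both are above the lowest miRNA share, 46.7% with inserts of 16 to 25 nt. The miRNA ends were not counted at the other lengths. All these end shares count exact reads only. With tailed reads also counted, 349 of 699 upstream antisense reads began at position 1899, and miRNAs were not compared on that count. Tails, with a miRNA median of 13.5%, were rarer on sense reads than in 99 miRNAs and more frequent on antisense reads than in 89. The mismatch share, with a miRNA median of 8.43%, was higher on sense reads than in 96 miRNAs and on antisense reads than in 98.

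On the scale of these miRNAs the siRNA strands differed widely in rank. The upstream sense strand had 25 reads in the library labelled siSrf1, where 221 of 553 listed miRNAs had more, and 1296 in the library labelled siSrf2, where 57 of 660 had more. There it stood between miR-126a-3p, an endothelial miRNA with 1325 reads, and miR-98-5p of the let-7 family with 1288. The upstream antisense strand had 2 reads in the library labelled siSrf1, where 402 miRNAs had more. It had 839 in the library labelled siSrf2, between miR-452-5p with 871 and miR-182-5p with 819, and 69 miRNAs had more. The downstream sense strand had 7 reads in the library labelled siSrf1, where 290 miRNAs had more. The downstream antisense strand, with 45 reads in the library labelled siSrf1, stood between miR-425-5p with 46 and miR-654-3p with 45, and 176 miRNAs had more. Per 1000000 miRNA reads the upstream sense strand reached 5.19 in the library labelled siSrf1 and 315.2 in the library labelled siSrf2, and the downstream antisense strand 9.34 in the library labelled siSrf1.

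The seeds of the strands were compared with those of the listed mature miRNAs of RefSeq (GRCm38.p6), because a ragged 5′ end moves the seed. Capitals mark bases 2 to 8 of the core strand and of the most frequent insert.
Upstream antisense, core strand: tAAATAAGtggtgccgtcc
Upstream antisense, most frequent insert: aAGTGGTGccgtccct
Downstream antisense, core strand: tAATACTCatagcaaattg
Downstream antisense, most frequent insert: aATACTCAtagcaaattgag
Upstream sense, core strand: gGACGGCAccacttattta
Upstream sense, most frequent insert: aCGGCACCacttatttatt
None of these seeds was that of a listed miRNA. The match to the upstream antisense core seed, CTTATTT, is in the annotated 3′ UTR of 15.1% of 20007 genes, on the mRNA strand, and the match to the seed of the 16-nt form, CACCACT, in 8.76%. The match to the downstream antisense core seed, GAGTATT, is in 6.39%, and that to its leading insert, TGAGTAT, in 7.15%. The matches to the upstream sense seeds are rarer: TGCCGTC, for the core strand, is in 2.09% and GGTGCCG, for the leading insert, in 1.78%. The match to the downstream sense seed, GCAAATT, is in 6.89%. Each antisense seed had 1 match in the Srf 3′ UTR, at its own site, and the sense seeds had 0. A match is a description and says nothing of pairing in the cells.

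In the library labelled siSrf2, Srf had more sense reads than any other protein-coding gene. The count took inserts with a single exact genome match in a protein-coding exon and was not scaled to length. Inserts that overlap annotated small RNA genes, miRNAs among them, were left out. Srf had 23 sense reads in the library labelled siSrf1, rank 18 of 3826 genes with reads. It had 1095 in the library labelled siSrf2, rank 1 of 6399 and 7.34% of all such reads. The next nuclear gene in the library labelled siSrf2 was Lars2, which encodes the mitochondrial leucyl-tRNA synthetase, with 372. Antisense to exons, Srf had 27 reads in the library labelled siSrf1, rank 9 of 1903, and 403 in the library labelled siSrf2, rank 4 of 3322, behind mt-Nd5 with 2066, mt-Cytb with 842 and mt-Nd1 with 453, respiratory chain genes of the mitochondrial genome, which is transcribed from both strands. In the library labelled siSrf1 the antisense reads of Srf came after mt-Nd5 with 232, Camta1 with 88, mt-Cytb with 74, Fgg with 60 and mt-Nd2 with 46. Of 131 genes with at least 10 sense reads over both libraries, 31 were higher in the library labelled siSrf2 by 2-fold with the whole interval on a single side, a share of 23.7%, and Srf was among them with a log2 ratio of siSrf1 over siSrf2 of -5.66 (-6.35 to -5.10). In the other direction 1.53% were, 2 genes. Of 29 genes with at least 10 antisense reads, 34.5% were higher in the library labelled siSrf2, Srf among them with -3.99 (-4.64 to -3.45), and 0 in the library labelled siSrf1. A 2-fold excess in the library labelled siSrf2 was therefore common among genes, and the Srf ratios also pool both duplexes.

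Genes around Srf gave few reads. The 10 cardiac transcription factors and SRF cofactors looked at (Gata4, Mef2a, Nkx2-5, Mef2c, Mef2d, Tbx5, Hand2, Myocd, Mkl1 and Mkl2) had 4 sense reads in the library labelled siSrf1 and 16 in the library labelled siSrf2, and antisense reads numbered 1 under the siSrf1 label and 6 under the siSrf2 label, with at most 1 antisense read per gene in either library. The 12 genes known as SRF targets had 49 sense reads under the siSrf1 label and 63 under the siSrf2 label; antisense reads numbered 1 under the siSrf1 label and 4 under the siSrf2 label. Those with at least 10 reads over both libraries were Tnnt2, the cardiac troponin T gene, with 9 sense reads in the library labelled siSrf1 and 19 in the library labelled siSrf2; Myh6, an alpha myosin heavy chain gene, with 16 under the siSrf1 label and 12 under the siSrf2 label; Actc1, cardiac actin, with 9 under the siSrf1 label and 6 under the siSrf2 label; and Actb, cytoplasmic beta actin, with 4 under the siSrf1 label and 7 under the siSrf2 label. None of the 3 housekeeping genes, Gapdh, Hprt and Eef1a1, had more than 1 read on either strand in either library. The antisense reads of Srf were therefore of another order than those of these mRNAs, while nothing in such fragment counts measures mRNA levels.

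Further inserts carried duplex sequence without meeting the match rule. Inserts of 16 nt or longer that hold 13 nt of the upstream duplex but are no members had 3 reads in the library labelled siSrf1 and 322 in the library labelled siSrf2, and those of the downstream duplex had 48 under the siSrf1 label and 1 under the siSrf2 label. At 15 nt there were 2 reads under the siSrf1 label and 398 under the siSrf2 label from the upstream duplex, and 19 under the siSrf1 label and 0 under the siSrf2 label from the downstream one. Both kinds followed the same split between libraries as the members.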

How the data were processed

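The authors deposited, for each library, a read count for every distinct 36-nt sequence, without normalization; the 3′ adapter was still present. Per the labels, small RNA was prepared with a kit from Illumina and sequenced on the Genome Analyzer. For the authors' work, the sources used here give no aligner, genome build or filter. The files of 2 libraries were used.

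Reads were trimmed at the first 8 nt of the adapter, or at 4 or more adapter bases that closed the read. Trimming left inserts of 16 to 25 nt in 57.5% of reads of the library labelled siSrf1 and 54.5% of the library labelled siSrf2. Inserts of 15 nt or longer were searched without mismatch on both strands of NCBIM37 (Python 3.11.15, numpy 2.4.6, numba 0.67.0, pandas 2.3.3) and on the Srf transcript of GENCODE vM1, preferring an exact match, then a tail, then a mismatch. A site was a window of exact inserts of either strand, each joined to another by an overlap of at least 15 nt. It had to hold inserts of both strands and at least 5 reads in a library. Named inserts had at least 10 reads in a library, or were the 5 most frequent of a site. Intervals came from scipy 1.17.1; ratios are per 1000000 inserts of 16 to 25 nt with a pseudocount of 0.5 reads on the log2 scale, and their intervals are conditional on the sum of both counts. Mature miRNAs were taken from RefSeq (GRCm38.p6) by sequence; the cardiac miR-1a-3p and miR-133a-3p, miR-122-5p and miR-124-3p were not matched there. The matching and the 2-fold rule were checked on simulated data.

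The members and gene lists were chosen with earlier results of these data known.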

Additional observations from a re-analysis of the deposited data

Results flagged for a closer look

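The following reads lay outside the member definition and exceeded what a count of 0 allows. Inserts holding 13 nt of the siRNA-like pair without a genome match had 0 reads under the siSrf1 label and 238 under the siSrf2 label. The antisense insert of 15 nt from the upstream site, a base too short for the member definition, had 1 read in the library labelled siSrf1 and 292 in the library labelled siSrf2 (259.5 to 327.5). Inserts that join the strands of the upstream duplex, at least 12 nt of the antisense strand followed by at least 7 nt of the sense strand, had 0 reads in the library labelled siSrf1 and 17 in the library labelled siSrf2 (9.90 to 27.2). All 17 reads, in 9 distinct inserts, joined to the sense strand at mRNA position 1881, the first base of the implied core, and none had the strands in the other order or came from the downstream site. The most frequent of them is shown with the sense part in capitals.
Joined insert, 3 reads: taaataagtggtgccgtcGGACGGCA
All inserts that hold 13 nt of the upstream duplex and are no members, the 15-nt insert above included, had 2 reads at 15 nt in the library labelled siSrf1 and 398 in the library labelled siSrf2, and from 16 nt up 3 reads in the library labelled siSrf1 and 322 in the library labelled siSrf2. Those of the downstream duplex had 19 reads at 15 nt in the library labelled siSrf1 and 0 in the library labelled siSrf2, and from 16 nt up 48 reads in the library labelled siSrf1 and 1 in the library labelled siSrf2. Joined inserts were defined after some had been seen. How they arose was not tested.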

How the results depend on the processing

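No paired analysis was possible because each title has 1 library. Of 142 alternative values, 102 stayed within the counting interval or 1.5 times the count, 40 moved and 0 changed direction. With 12 nt of adapter the upstream site had 2011 reads in the library labelled siSrf2, and 2357 with 1 mismatch allowed in it. Exact matches gave 30 downstream reads in the library labelled siSrf1, 1498 upstream reads in the library labelled siSrf2 with an antisense share of 26.9%, and 0 outside the sites in both. Inserts of 18 to 25 nt gave 36 downstream reads (antisense main 5′ end 66.7%, at position 2130 in place of 2127) and 0 outside reads in the library labelled siSrf1; in the library labelled siSrf2 they gave 1735 upstream reads, an antisense share of 28.6%, a sense main 3′ end of 96.7%, an antisense main 5′ end of 56.5%, at 1899 in place of 1894, and 3′ end of 44.6%, at 1880 in place of 1879, an antisense tail share of 50.8% and 3 outside reads. Inserts of 15 to 28 nt gave 34 outside reads in the library labelled siSrf1, against 42 in the library labelled siSrf2, which also had 2495 upstream reads, an antisense share of 47.9%, a main antisense 5′ end of 62.7%, at 1894 as with 16 to 25 nt, a main antisense 3′ end of 56%, at 1880, and an antisense tail share of 25.7%. The antisense share and ends therefore depend on the shortest insert kept. Among reads that met the match rule, sense reads were the more frequent upstream at each setting. Inserts that hold duplex sequence without meeting that rule were not split by strand. With other genome matches kept, outside reads were 86 under the siSrf1 label and 86 under the siSrf2 label. Without sequences read once, the library labelled siSrf1 had 37 downstream reads and a downstream antisense tail share of 0%, and the library labelled siSrf2 had 1980 upstream reads, a sense tail share of 1.14% and 9 outside reads. A pseudocount of 5 reads gave a downstream log2 ratio of 3.39. Genes with more sense reads in the library labelled siSrf2 numbered 59 with no minimum and 10 at a minimum of 50 reads, where 0 had more in the library labelled siSrf1; with no minimum 1 gene had more antisense reads there. Pairs without a genome match numbered 46 under the siSrf1 label and 60 under the siSrf2 label at a minimum of 2 reads per strand, and 8 in the library labelled siSrf1 at 10. Downstream and upstream values of the library labelled siSrf1 rest on 52 reads and 27 reads, which limits their precision.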
